A study of Mus musculus with 24 samples.

Results

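Adipocyte marker genes were followed in RNA of whole mouse gastrocnemius, the large muscle of the calf. The set holds 10 named genes out of 54532 in the count files, chosen by name, with earlier results of these data known: Adipoq, Lep, Retn and Cfd, which encode secreted adipokines, Plin1 and Cidec, which encode lipid droplet proteins, Lipe, Fabp4 and Pck1, which act in fat breakdown, fatty acid transport and glycerol supply, and Acvr1c, which encodes a receptor. Each symbol matched 1 gene. All 10 were high enough to be tested in every comparison.

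White adipocytes store triglyceride in a single large droplet and release adiponectin, leptin, resistin and adipsin. Muscle dissected from the limb carries some of them, between its fibres, around its vessels and nerves and on its surface, so bulk muscle RNA holds some adipocyte RNA. Fabp4 is also made by capillary endothelium, and Lipe, the hormone-sensitive lipase, is also present in muscle fibres, so these members are not purely adipocyte genes. In bulk tissue, fewer adipocytes and less RNA of these genes per adipocyte cannot be told apart.

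The 24 libraries came from the left gastrocnemius of wild-type C57/BL6 mice, 4 animals in each of 6 groups, sampled at 24 h. Control females and control males were sedentary and had 2 injections of 20 µl saline of pH 7.2 ± 0.1, spaced 5 days apart. Sedentary pain animals had 2 injections of pH 5.0 ± 0.1 on the same schedule, the second of them right after 6 min of electrically evoked contraction of that muscle, and active pain animals had the same procedure after 8 weeks with a running wheel. No group had running without pain, and acid and contraction were always given together, so these cannot be told apart. Ages, and what the animals that share a replicate number have in common, are not given in the labels, and p-values measure the spread between these samples. Library totals ran from 17612139 to 34039699 counts. The number in the library names is 20 or lower for replicates 1 and 2 and 25 or higher for replicates 3 and 4 of each group.

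Levels are CPM, counts scaled to a library of 1000000 with factors from the trimmed mean of M-values (TMM). Female control replicates 3 and 4 were the 2 highest of the 24 libraries in all 10 members, and the counts of called members that use them are given with and without them. For Lep the lower of them, at 31.5 CPM, was close to male control replicate 3, at 29.7 CPM. Changes are on the log2 scale with their standard error (SE), from edgeR's quasi-likelihood test, with p-values adjusted by the Benjamini-Hochberg method over all genes tested and a threshold of 0.05.

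The stretches before the start of 4 members are shown because the results turn on them: Adipoq is the reference for the other members, Plin1 followed it most closely, and Lep and Retn departed from it in opposite directions between the sexes. They are the 250 bases before the RefSeq start on GRCm38.p6, written 5′ to 3′ on the gene's strand, and capitals mark the matches to the motifs named after them.
Adipoq (chr16:23146286-23146535, plus strand): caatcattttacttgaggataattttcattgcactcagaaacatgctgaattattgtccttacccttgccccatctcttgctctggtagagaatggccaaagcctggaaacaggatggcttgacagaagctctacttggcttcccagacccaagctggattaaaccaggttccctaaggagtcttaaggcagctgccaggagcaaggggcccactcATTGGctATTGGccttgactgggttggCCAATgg
Plin1 (chr7:79732777-79733026, minus strand): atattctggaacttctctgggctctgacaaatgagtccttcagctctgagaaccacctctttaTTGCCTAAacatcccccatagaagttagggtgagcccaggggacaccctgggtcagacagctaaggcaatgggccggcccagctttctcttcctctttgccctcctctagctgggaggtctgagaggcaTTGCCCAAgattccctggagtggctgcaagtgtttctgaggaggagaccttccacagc
Lep (chr6:29059971-29060220, plus strand): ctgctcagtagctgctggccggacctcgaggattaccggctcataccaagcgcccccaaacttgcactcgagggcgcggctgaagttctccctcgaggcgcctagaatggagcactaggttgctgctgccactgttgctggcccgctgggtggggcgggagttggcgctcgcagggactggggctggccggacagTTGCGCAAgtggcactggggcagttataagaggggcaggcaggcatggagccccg
Retn (chr8:3655520-3655769, plus strand): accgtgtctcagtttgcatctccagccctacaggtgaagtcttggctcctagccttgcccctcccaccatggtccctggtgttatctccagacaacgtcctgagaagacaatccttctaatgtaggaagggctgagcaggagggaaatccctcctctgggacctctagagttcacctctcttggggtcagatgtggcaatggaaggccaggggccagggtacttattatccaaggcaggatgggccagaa
The motifs searched, on both strands, were CCAAT, the TATA box form TATAAA, the nuclear receptor half-site AGGTCA, the DR1 form bound by the adipocyte regulator PPARG with its partner RXR (a pair of that half-site with 1 base between them), and TTNNGCAA, a form bound by C/EBP factors. A DR1 match holds half-site matches as well. Of the members, 9 had a promoter in the table, with 12 promoters in all, and Fabp4 had none. CCAAT was in the Adipoq window, at 3 places, and in no other member's, against 33.8% of 32851 windows of the same length. TTNNGCAA was in the windows of Plin1, Lep and 1 of the 2 of Cidec, against 9.56% of all windows. The TATA box form, the half-site and DR1 were in 0 of the 12 member windows, against 12.4%, 14.02% and 0.0335% of all windows. These are matches of letters, not measured sites.

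Adipoq, the gene of adiponectin, the most abundant hormone of fat cells, lies on chromosome 16 (23146536 to 23158028, GRCm38). In female controls it measured 28.4, 16.5, 368 and 176 CPM in replicates 1 to 4. In female sedentary pain the values were 6.44, 15.2, 43.3 and 7.68 CPM, and in female active pain 37.3, 14.6, 22.8 and 20.5 CPM. Female control replicates 3 and 4 were far above every other female, whereas replicates 1 and 2 lay among the pain animals. Male controls had 8.71, 32.8, 69.2 and 6.19 CPM. Males in sedentary pain had 17.0, 5.36, 21.1 and 29.1 CPM, and males in active pain 20.6, 17.5, 52.3 and 7.89 CPM. The 3 male groups overlapped, and the highest male was control replicate 3. Over the 24 animals Adipoq spanned 68.7-fold, and over the 12 males 12.9-fold.

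**Figure D1:**
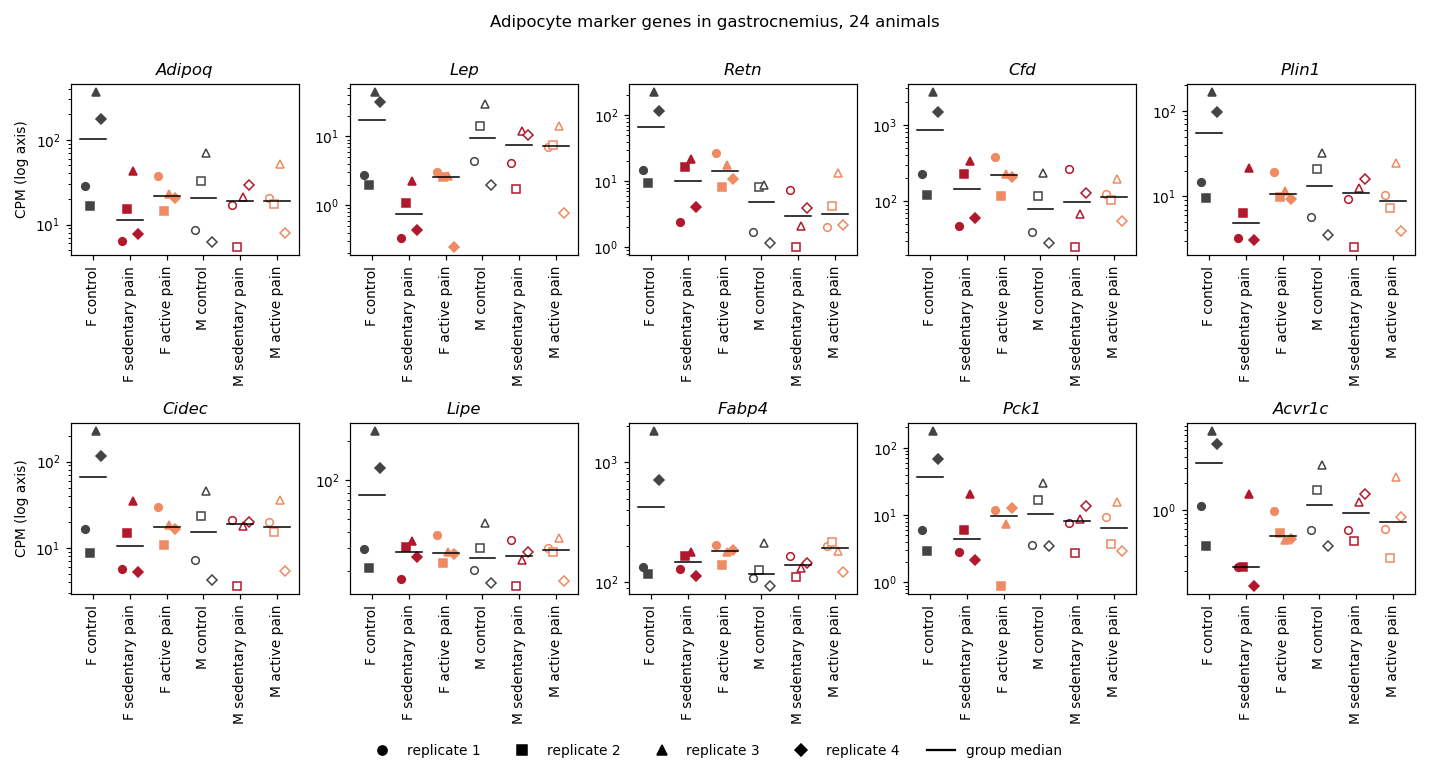
CPM of each member (log axis, own scale per panel) in the 6 groups, F for females and M for males, with 1 symbol per animal, its shape giving the replicate number, and a line at the group median. Female control replicates 3 and 4 lie above the other 22 animals in every panel; for Adipoq they reach 368 and 176 CPM.

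The other adipokines showed the same pair of high female controls. Lep, which encodes the satiety hormone leptin (chromosome 6, 29060220 to 29073877), measured 2.76, 2.00, 44.7 and 31.5 CPM in female controls and 0.339, 1.07, 2.27 and 0.438 CPM in female sedentary pain. Female active pain animals had 3.03, 2.60, 2.63 and 0.245 CPM. Over 12 animals each, males had a median of 7.25 CPM and females of 2.43 CPM. Male Lep was 4.41, 14.4, 29.7 and 2.00 CPM in controls, 4.18, 1.74, 11.9 and 10.6 CPM in sedentary pain and 7.04, 7.45, 14.2 and 0.785 CPM in active pain. The lowest Lep values rest on few reads, 8 in the lowest female active pain library and 9 in the lowest female sedentary pain library.

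Retn, the gene of resistin (chromosome 8, 3655770 to 3660110), had 14.8, 9.33, 228 and 118 CPM in female controls and 2.45, 16.4, 21.9 and 4.07 CPM in female sedentary pain. Male controls had 1.68, 8.14, 8.75 and 1.16 CPM, all below the lowest female control. Cfd, the gene of adipsin, an activator of the alternative complement pathway (chromosome 10, 79890853 to 79892655), had 231, 119.9, 2715 and 1473 CPM in female controls and 39.6, 118, 236 and 28.1 CPM in male controls. The 2 lower female controls therefore lay inside the male control range for Cfd, while for Retn they did not.

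The lipid droplet genes moved with Adipoq animal by animal. Plin1, which encodes perilipin 1, the gatekeeper of the droplet surface (chromosome 7, 79720218 to 79732903), measured 14.6, 9.54, 169 and 96.8 CPM in female controls, 3.28, 6.42, 21.7 and 3.06 CPM in female sedentary pain, and 5.70, 20.98, 32.3 and 3.52 CPM in male controls. Cidec, which encodes a protein that promotes droplet fusion (chromosome 6, 113424634 to 113435760), had 16.5, 8.82, 229 and 115 CPM in female controls, 5.72, 15.04, 34.5 and 5.25 CPM in female sedentary pain, and 7.27, 23.2, 45.98 and 4.26 CPM in male controls. In each of these 3 groups replicate 3 was the highest animal for Adipoq, Plin1 and Cidec.

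Fabp4 and Lipe kept a floor where the narrower markers were low. Fabp4, the fatty acid carrier of adipocytes (chromosome 3, 10204088 to 10208576), had 135, 117, 1842 and 713 CPM in female controls, and its lowest value in any library was 92.9 CPM. Over the 12 males Fabp4 spanned 2.32-fold and Lipe (chromosome 7, 25379527 to 25398710) 3.10-fold, against 12.9-fold for Adipoq in the same animals. Lipe had 29.8, 20.9, 242 and 125 CPM in female controls and never fell below 15.3 CPM. An antisense gene, 4732471J01Rik, overlaps Lipe, and whether strand was used in counting is not stated, so reads of both genes cannot be separated.

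Acvr1c had the fewest reads of the members, and Pck1 a wide span. Pck1, the enzyme that supplies glycerol for triglyceride in adipocytes (chromosome 2, 173153048 to 173159273), had 5.95, 2.94, 180.0 and 67.7 CPM in female controls and 0.879 CPM in female active pain replicate 2, a span of 205-fold over the 24 animals. Acvr1c, which encodes ALK7, an activin receptor of adipocytes (chromosome 2, 58267453 to 58357895), had 1.09, 0.383, 7.96 and 5.66 CPM in female controls and 0.226, 0.225, 1.501 and 0.135 CPM in female sedentary pain, the lowest from 4 reads. An antisense gene and a pseudogene, Gm13544 and Gm13545, overlap Acvr1c.

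Ordered by median CPM per kb of the longest coding transcript, female controls ran from Cfd at 924 and Fabp4 at 473 through Adipoq at 79.1, Retn at 58.4, Cidec at 38.3, Lipe at 20.8, Plin1 at 19.8 and Pck1 at 13.8 to Lep at 5.25 and Acvr1c at 0.369 CPM per kb. In male controls Fabp4 at 132 stood above Cfd at 85.5, and Retn, at 4.31, came after Adipoq at 16.1, Cidec at 8.87, Lipe at 6.80 and Plin1 at 4.74 CPM per kb, followed by Pck1 at 3.85, Lep at 2.88 and Acvr1c at 0.123. Neighbours in either order overlapped in their range over the 4 animals, with the exception of Lep and Acvr1c in males. Within single animals the order was firmer for some neighbours: Adipoq exceeded the next gene in 4 of 4 female and 4 of 4 male controls, while Cidec exceeded Lipe in 3 of 4 female and 2 of 4 male controls.

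The spread among saline controls was wide for all members. In female controls the SD of log2 CPM ran from 1.67 for Lipe to 2.80 for Pck1, with 2.12 for Adipoq, against a median of 0.233 over the 14511 genes tested in females, and each member exceeded at least 99.0% of those genes. In male controls Fabp4 had an SD of 0.520 and Lipe of 0.679, above 93.7% and 96.96% of 14404 genes, and the other 8 members had 1.29 (Acvr1c) to 1.71 (Lep), against a median of 0.150. The ranking of the animals was shared: male control replicate 3 was highest and replicate 4 lowest in each of the 10 members, and female control replicate 3 was highest and replicate 2 lowest in each.

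**Figure D2:**
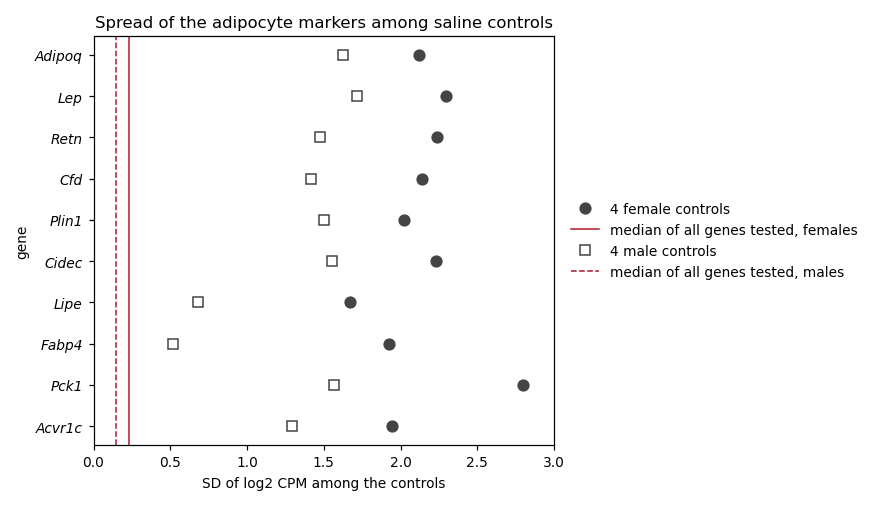
SD of log2 CPM (x axis) of each member among the 4 female controls (filled circles) and the 4 male controls (open squares), with lines at the median SD over all genes tested in that sex, 0.233 and 0.150. Each member lies to the right of both lines, and Fabp4 and Lipe are closest to them in males.

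Female control replicates 3 and 4 differed from replicates 1 and 2 by more than the members. The mean of replicates 3 and 4 was 12.1-fold that of replicates 1 and 2 for Adipoq, 7.23-fold for Lipe and 27.8-fold for Pck1, which bound the range of the 10. The 8 genes of de novo lipogenesis, which build fatty acids from sugar, summed to 751 and 801 CPM in replicates 1 and 2 and to 11559 and 9036 CPM in replicates 3 and 4. Fasn, the fatty acid synthase, alone went from 96.7 and 119 to 2128 and 1994 CPM. Brown and beige adipocyte genes summed to 4.16 and 4.30 against 31.4 and 23.8 CPM, with 5 and 20 reads of Ucp1, the uncoupling protein of brown fat, in replicates 3 and 4 and 0 reads in the other 22 libraries. Of that sum, Cidea had 11.7 and 8.87 CPM and Kcnk3 12.8 and 9.63 CPM in replicates 3 and 4. Elovl3, Otop1 and Lhx8 also had more reads there. Dio2 and Zic1 did not follow, with 27, 63, 32 and 28 reads and 33, 7, 32 and 3 reads in replicates 1 to 4. The 6 keratinocyte markers summed to 2.19 and 1.58 CPM in replicates 1 and 2 and to 6.73 and 4.48 CPM in replicates 3 and 4. Of these the basal keratins Krt5 and Krt14, named after their values were seen, had 2.85 and 2.15 CPM in replicate 3, 1.39 and 1.60 CPM in replicate 4 and 0 in replicates 1 and 2. Krt10 had 2.19, 1.58, 1.73 and 1.45 CPM in the 4 controls, and Krt1, Dsg3 and Lor had at most 1 read in each. Summed markers of endothelium were 257 and 257 CPM in replicates 1 and 2 and 324 and 295 CPM in replicates 3 and 4. Those of fibro-adipogenic progenitors were 681 and 719, and 723 and 810 CPM, and those of muscle fibres 197081 and 165761, and 129239 and 151323 CPM. Macrophage markers summed to 94.2 and 94.5 CPM, and to 161 and 208 CPM. The part of any of these in the members' values was not tested.

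In sedentary pain against control, 8 of the 10 members were lower in females at an adjusted p under 0.05. Of all 14511 genes tested, 33.5% passed that threshold and 13.9% passed and were lower. Lep changed by -4.26 ± 1.11 (SE) on the log2 scale (edgeR, adjusted p = 0.0158), Plin1 by -3.04 ± 0.92 (adjusted p = 0.0283) and Adipoq by -2.99 ± 0.94 (adjusted p = 0.0315). Retn, Acvr1c, Cfd, Fabp4 and Lipe changed by -3.03, -2.77, -2.74, -2.25 and -1.93, with adjusted p-values of 0.0335 to 0.0436. Cidec, at -2.58 ± 0.94 (adjusted p = 0.0528), and Pck1, at -3.00 ± 1.23 (adjusted p = 0.0756), did not pass. All 10 had an unadjusted p under 0.05, as 47.6% of all genes did. The median over the members was -2.88, and over all genes tested -0.02. No member's CPM values separated the groups, whereas 26% of all genes had groups that did not overlap.

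The count depended on single animals, among them female control replicates 3 and 4. These 2 were left out after their values had been seen to be the highest, so the control level had to fall. Without both of them, 0 of the 10 members passed and 0 had an unadjusted p under 0.05, against 16.5% and 41.2% of all genes in that fit. The changes then ran from -1.15 (Lep) to 0.87 (Pck1) with a median of -0.04, and Fabp4 and Lipe were at 0.25 and 0.13. Within replicates 1 and 2 alone 0 members passed, against 1.67% of all genes, with a median of -0.32 and a range of -1.77 (Lep) to 0.26 (Fabp4). Lep and Plin1 had an unadjusted p under 0.05 there (edgeR, 0.0172 and 0.0363), 2 of 10 members against 22.8% of all genes. Within replicates 3 and 4 alone all 10 passed and were lower, with a median of -3.36, while 22.4% of all genes passed and 6.28% passed and were lower. The count was 4 with the library number as a covariate, 0 with 1 surrogate variable, 1 with no filter on low counts and 1 with only the 2 groups in the fit, and 37.1%, 0.544%, 16.2% and 20.1% of all genes passed in these fits. With the replicate number as a block it was also 4, and the share of all genes in that fit is not given here. Leaving out single animals gave 1 called member without female control replicate 3, 1 without female control replicate 4, 0 without female sedentary pain replicate 4, 1 without its replicate 2, 3 without its replicate 1 and 4 without female active pain replicate 4. The share of all genes called in the fits with 1 animal left out is not given here. A loss in the members and a loss across all genes therefore cannot be told apart in them. The mitochondrial share of counts was 2.75% to 8.22% in female sedentary pain and 8.59% to 11.02% in female controls, and all 10 macrophage markers were higher in that comparison, with a median change of 4.46. Their part in the members' change was not tested.

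In active pain against control, the members of females also lay below 0, between -1.86 (Lipe) and -3.27 (Lep), with a median of -2.55, yet 0 of 10 passed edgeR's test (smallest adjusted p = 0.565), and 0 passed with DESeq2. In that comparison 0% of all genes passed, and all 10 members had an unadjusted p under 0.05, as 7.03% of all genes did. No member's groups separated in CPM, against 5.51% of all genes. Without female control replicates 3 and 4 the median was 0.32 and 0 members had an unadjusted p under 0.05, against 4.33% of all genes. Both female comparisons use the same 4 controls. The difference between the active and sedentary pain groups does not use them, although they enter the spread of the fit. The members differed by 0.03 (Pck1) to 0.99 (Lep), 0 passed (smallest adjusted p = 0.519) and 0 had an unadjusted p under 0.05, against 11.9% and 32.2% of all genes. Without female control replicates 3 and 4 the smallest adjusted p of a member was 0.343 in edgeR, and 0% of all genes passed. Within replicates 1 and 2 all 10 members were higher in active pain, with a median of 0.91 and 2 at an unadjusted p under 0.05, Lep at 2.01 and Plin1 at 1.57, against 12.3% of all genes in that fit. Within replicates 3 and 4, 7 of the 10 lay below 0, with a median of -0.22. The CPM values of 0 members separated these groups, against 11.7% of all genes.

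In males 0 members passed edgeR's test in any of the 3 comparisons, and 0% of all genes passed in each. DESeq2 also called 0 members. At an unadjusted p under 0.05 there were 0 members in each, against 8.84%, 7.25% and 0.84% of all genes. Changes in sedentary pain ran from -0.84 ± 0.90 (Lep) to 0.24 ± 0.77 (Cfd), and in active pain from -0.79 ± 0.77 (Pck1) to 0.41 ± 0.28 (Fabp4), with unadjusted p-values of at least 0.362 and 0.164. Active against sedentary pain gave -0.06 (Pck1 and Cfd) to 0.58 (Retn). The SE of the changes was 0.74 to 0.91 for the members other than Fabp4 and Lipe. No member's groups separated in CPM, against 7.77%, 10.3% and 0.715% of all genes.

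The test of whether the change differed between the sexes passed for 0 members, and for 0% of all genes, in each of the 3 contrasts with edgeR, and for 0 members with DESeq2. For sedentary pain against control the female minus male change was -1.75 ± 0.76 (Lipe) to -3.38 ± 1.45 (Lep), with a smallest adjusted p of 0.432 and 4 members at an unadjusted p under 0.05, against 9.57% of all genes. For active pain against control 2 members were at an unadjusted p under 0.05, against 2.03% of all genes, and for active against sedentary pain 0, against 14.7%. Without female control replicates 3 and 4 the median for sedentary pain against control went from -2.26 to 0.25, and for active pain against control from -2.28 to 0.30.

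**Figure D3:**
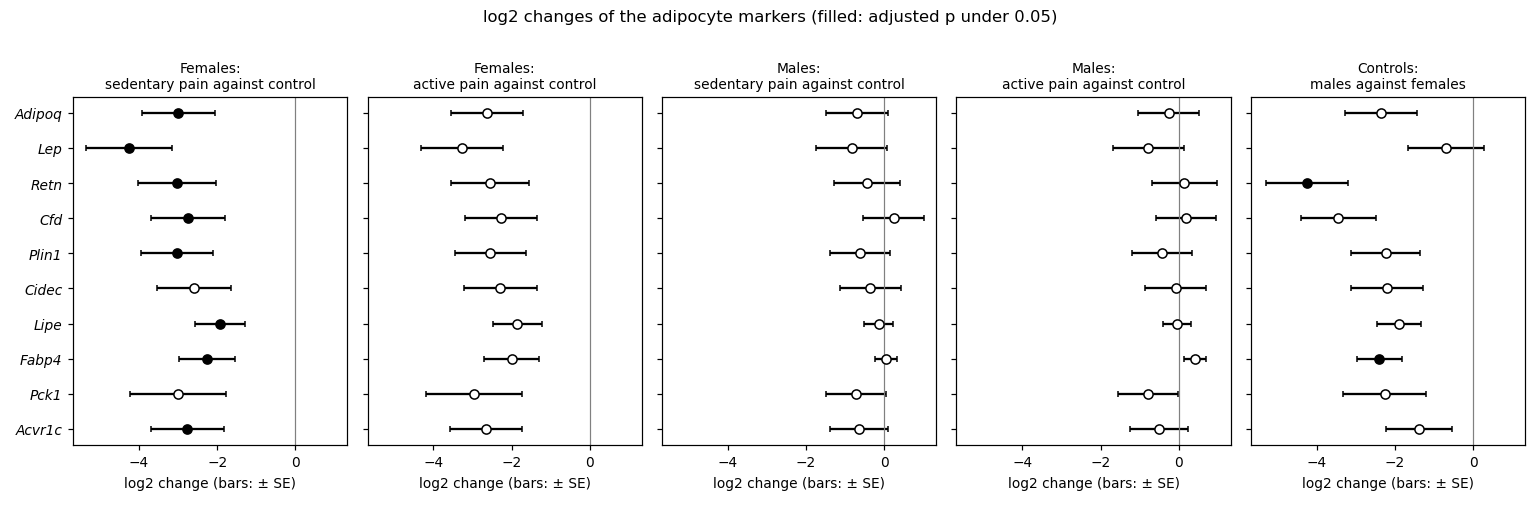
log2 change of each member with its SE (bars) in the pain groups against controls of the same sex, and in male against female controls, filled where the adjusted p was under 0.05. The 8 filled points of female sedentary pain and the 2 of the control comparison, Fabp4 and Retn, were not called without female control replicates 3 and 4.

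Male controls against female controls gave 2 lower members, against 2.83% of all 15103 genes called and 1.28% called and lower. Retn changed by -4.25 ± 1.05 (edgeR, adjusted p = 0.0285) and Fabp4 by -2.40 ± 0.58 (adjusted p = 0.0260). Retn was also the 1 member whose control groups did not overlap, against 21.3% of all genes. Lep, at -0.70 ± 0.97, was the member with the smallest difference, and Cfd, at -3.45 ± 0.96 (adjusted p = 0.0582), missed the threshold. Without female control replicates 3 and 4 the count was 0, against 0.681% of all genes called. Retn was then still below 0, at -1.30 ± 0.94, and Fabp4 was at 0.10. Of the 10 members 8 lay above 0, with a median of 0.37, and Lep, at 2.40 ± 1.19, had the largest difference. The count was also 0 without female control replicate 3 or 4 alone and without male control replicate 1, 2 or 4, and 4 without female control replicate 1 or 2. With the replicate number as a block it was 1. For the fits with 1 animal left out and with the block, the share of all genes called is not given here.

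Since the members rose and fell together, each was also set against Adipoq in the same library, so that libraries with more and with less adipocyte RNA could be set side by side. Counts of a gene per 100 Adipoq counts depend on the gene's length, so they are compared between animals and not between genes. The ratios were chosen after the values had been seen, and 9 were computed. Log2 ratios were compared between females and males by an exact two-sided permutation of sex within each condition, and p-values were adjusted over the 9 ratios.

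Lep per 100 Adipoq counts was 9.72, 12.1, 12.1 and 17.9 in female controls and 50.6, 43.8, 42.9 and 32.3 in male controls. In sedentary pain females had 5.26, 7.04, 5.24 and 5.70 and males 24.5, 32.5, 56.5 and 36.5. In active pain females had 8.11, 17.8, 11.5 and 1.19 and males 34.1, 42.7, 27.2 and 9.95. Every male lay above every female within the control and sedentary pain conditions, and in active pain 1 male, replicate 4, lay inside the female range. The female minus male difference was -2.09 ± 0.35 (SE) on the log2 scale, a 4.26-fold higher ratio in males (exact permutation p = 1.75e-05, adjusted p = 7.87e-05). It was -2.16 without female control replicates 3 and 4, -1.999 within replicates 1 and 2 and -2.18 within replicates 3 and 4, with exact permutation p-values of 4.08e-05, 0.00926 and 0.0185, and the adjusted p within replicates 1 and 2 was 0.0833.

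Retn went the other way. Per 100 Adipoq counts it was 52.2, 56.4, 61.8 and 67.1 in female controls and 19.3, 24.8, 12.6 and 18.8 in male controls, and over all conditions 11 of 12 females exceeded every male. The difference was 1.67 ± 0.24, a 3.19-fold higher ratio in females (exact permutation p = 1.17e-05, adjusted p = 7.87e-05). It was 1.63 without female control replicates 3 and 4, 1.51 within replicates 1 and 2 (adjusted p = 0.0833) and 1.83 within replicates 3 and 4 (adjusted p = 0.0278), in exact permutation tests.

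Cfd was also higher relative to Adipoq in females, by 0.81 ± 0.20 (exact permutation p = 0.00063, adjusted p = 0.00189), with medians of 809 and 454 per 100 Adipoq counts. Acvr1c was lower in females by the same measure, -0.93 ± 0.26 (exact permutation p = 0.00135, adjusted p = 0.00304), on counts as low as 4 reads. Within replicates 1 and 2 neither passed, with Cfd at 0.61 and Acvr1c at -0.56 and adjusted exact p-values of 0.208 and 0.319. Within replicates 3 and 4 both passed, with Cfd at 1.02 and Acvr1c at -1.30 and an adjusted exact permutation p of 0.0278 for each. For Plin1 the difference was -0.07 ± 0.07, for Cidec -0.10 ± 0.10, for Fabp4 -0.13 ± 0.34, for Lipe -0.15 ± 0.29 and for Pck1 -0.44 ± 0.29, and none of these passed (adjusted exact p-values of 0.22 to 0.707). Pck1 was at -0.58 without female active pain replicate 4 (adjusted exact permutation p = 0.0451) and at -0.21 without its replicate 2. Among controls alone the sexes separated for Lep, Retn, Cfd, Acvr1c and also Cidec, at -0.28, each with an exact permutation p of 0.0286, the smallest that 4 against 4 animals can give, and an adjusted p of 0.0514. In CPM, 21.3% of all genes had male and female controls that did not overlap. The share of all genes whose ratio to Adipoq differs between the sexes is not given here. All these ratios use the same Adipoq counts, so they are not independent. With Plin1 in place of Adipoq the differences were -2.02 for Lep, 1.75 for Retn, 0.88 for Cfd and -0.86 for Acvr1c, and these 4 again passed.

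**Figure D4:**
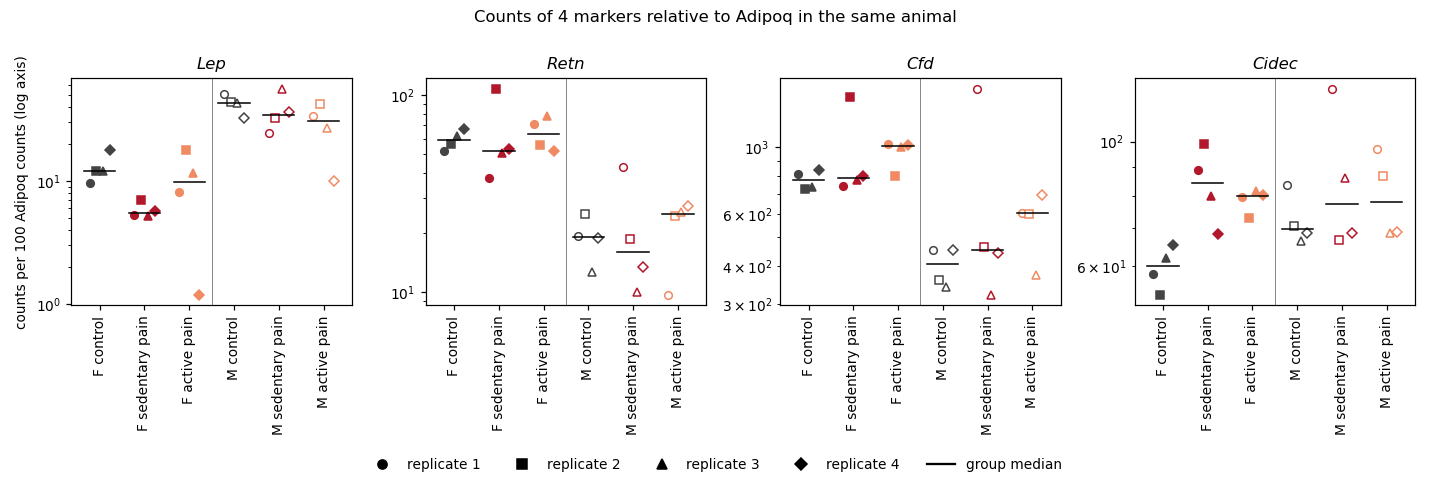
Counts of Lep, Retn, Cfd and Cidec per 100 Adipoq counts of the same library (log axis) in the 6 groups, with 1 symbol per animal, its shape giving the replicate number, and a line at the group median. Lep is lower and Retn higher in females (left of the grey line) than in males, and the 2 high female controls lie near the other female controls for Retn and Cfd.

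Female control replicates 3 and 4, which were high in level, were near the other female controls in Retn and Cfd per Adipoq: they had 61.8 and 67.1 Retn and 737 and 837 Cfd per 100 Adipoq counts, beside 52.2 and 56.4 Retn and 815 and 726 Cfd in replicates 1 and 2. Other ratios differed more between these pairs. Replicates 3 and 4 had 48.8 and 38.5 Pck1 and 65.6 and 70.9 Lipe per 100 Adipoq counts, whereas replicates 1 and 2 had 20.99 and 17.8 Pck1 and 105.1 and 127 Lipe. Between conditions within a sex, 54 such ratios were compared. In females, Lep per Adipoq was lower in sedentary pain than in any control (5.24 to 7.04 against 9.72 to 17.9), and Cidec per Adipoq was higher in sedentary pain (68.4 to 98.9) and in active pain (73.2 to 81.6) than in any control (53.4 to 65.5). Each of these 3 comparisons had the smallest exact permutation p that 4 against 4 animals can give, 0.0286, and an adjusted p of 0.463 over the 54. In males 0 of 27 ratios separated the groups. In 1 female and 1 male of sedentary pain, replicates 2 and 1, Cfd per Adipoq was 1478 and 1573, above the other 22 animals.

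Over the 24 animals all 9 other members rose with Adipoq on the log2 CPM scale. Plin1 had Pearson's r = 0.991 and Spearman's rho = 0.976, and Cidec 0.983 and 0.956, whereas Lep had 0.739 and 0.757 and Fabp4 0.862 and 0.753. Permutation p-values (100000 permutations) were at most 5e-05 for r and 0.00013 for rho, and the adjusted values over the 9 relations were at most 5e-05 and 0.00013. The 2 animals farthest from the median of Adipoq were female control replicates 3 and 4. Without them r was 0.981 for Plin1, 0.967 for Cidec, 0.811 for Pck1, 0.713 for Fabp4 and 0.626 for Lep. Within replicates 1 and 2 r was 0.970 for Plin1 and 0.522 for Fabp4, and within replicates 3 and 4 0.996 and 0.910, with 12 animals in each.

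**Figure D5:**
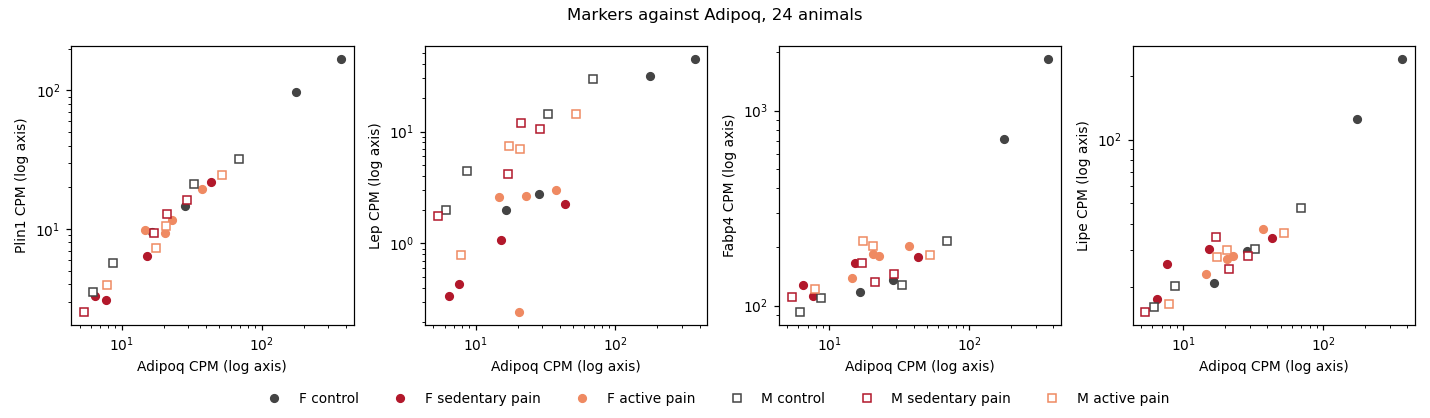
CPM of Plin1, Lep, Fabp4 and Lipe (y axis, log) against CPM of Adipoq (x axis, log) in 24 animals, with circles for females and squares for males. Plin1 lies close to 1 line, Lep is mostly lower in females than in males at the same Adipoq, with overlap, and Fabp4 and Lipe vary less than Adipoq among the 22 animals other than the 2 high female controls.

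The genes whose pattern was most like the members were found by correlation of log2 CPM with the mean of the members over 24 samples, after subtracting each sex and condition mean, among 14044 genes tested in both sexes. The 8 nearest outside the members were Cdo1 (r = 0.984), Car5b, Serpina3c, Smoc1, Slc7a10, Tshr, A530016L24Rik and Prkar2b (r = 0.957). Of these only Slc7a10, an amino acid transporter used as a white adipocyte marker, was on a list used here. Cdo1, the cysteine dioxygenase, measured 20.9, 15.6, 258 and 176 CPM in female controls, and Tshr, the thyrotropin receptor, 1.05, 1.19, 17.5 and 11.3 CPM. Among all genes Adipoq, Cidec and Plin1 ranked 1 to 3, and Lep and Fabp4 ranked 59 and 75. The members themselves are part of the mean, so these ranks are a description.

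Other genes of adipocyte biology were counted from lists chosen with earlier results known, in female sedentary pain against control, where 13.9% of all genes were called and lower and 19.6% called and higher. Of 10 other white adipocyte genes tested, 7 were lower and 0 higher, with a median of -2.63. Npr3, a natriuretic peptide clearance receptor, changed by -3.07 (edgeR, adjusted p = 0.0121), Aqp7, the glycerol channel, by -1.34 and Plin4, another droplet coat protein, by -1.08. All 8 de novo lipogenesis genes were lower, with a median of -4.04, among them Fasn at -5.13, Pnpla3 at -3.73 and Me1, the malic enzyme, at -1.30. Of 12 genes of triglyceride storage and breakdown 7 were lower and 1 higher (median -1.15), with Dgat2, an enzyme of triglyceride synthesis, at -3.63. Of 10 adipogenic transcription factors 6 were lower and 1 higher (median -0.93), among them Klf15 at -1.48. Pparg, the master regulator of adipocytes, changed by -2.39 (adjusted p = 0.0286), and Cebpa was at -1.41 (adjusted p = 0.151); both were named after their values were seen. Of the 4 brown and beige genes tested 2 were lower, Cidea at -5.10 and Kcnk3 at -3.45. Neither of the others was called, and Dio2 lay above 0, at 1.21 (edgeR, adjusted p = 0.0590).

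Without female control replicates 3 and 4 these counts were 0 of 10 white adipocyte genes, 3 of 8 lipogenic genes (median -0.98), 2 of 12 storage genes and 2 of 10 transcription factors lower, and 0 brown and beige genes, where 5.13% of all genes were called and lower. Cebpa turned to 1.16 (edgeR, adjusted p = 0.0939) and Pparg was at -0.10 (adjusted p = 0.880). Fasn, at -1.78 (adjusted p = 0.0537), and Npr3, at -1.35 (adjusted p = 0.128), were no longer called, while Dgat2, Pnpla3 and Me1 were, at -1.24, -1.37 and -0.64. Klf15 and Gpd1, a glycerol-3-phosphate dehydrogenase, were also still called, at -1.35 and -1.09. Klf15 had 38.9, 37.4, 36.3 and 53.8 CPM in female controls and 20.8, 11.04, 17.8 and 8.69 CPM in sedentary pain, and Gpd1 had 1214, 1082, 899.5 and 1083 against 648, 557, 533 and 368 CPM. For both, all 4 pain animals lay below all 4 controls, where 26% of all genes had groups that did not overlap. Neither followed Adipoq among the female controls: replicate 3, the highest for Adipoq, was the lowest for both. Control replicate 4 was the highest for Klf15 and replicate 1 for Gpd1. In which cells of the muscle these changes lay was not tested.

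Markers of other cells were counted in the same comparison, in which 33.5% of all genes were called. Of 10 endothelial markers 2 were lower, Cdh5 and Kdr, at -0.73 and -0.93, with a list median of -0.16. Of 10 fibro-adipogenic progenitor markers 1 was higher, Ly6a at 2.78, and 1 lower, Smoc2 at -0.50. Muscle fibre markers gave 2 lower of 10, Ttn and Myh2, nerve markers 1 lower of 8, tendon markers 1 higher of 6, keratinocyte markers 1 lower of 1 tested, erythroid markers 0 of 5, and B cell markers 2 higher of 2 tested. Without female control replicates 3 and 4, 11.4% of all genes were called and higher and 5.13% called and lower. In that fit 9 of 10 macrophage markers were higher and 2 of 10 muscle fibre markers lower, 1 progenitor marker was higher, and 0 were called among the endothelial (median 0.10), nerve, tendon, keratinocyte, erythroid and B cell markers, the last with 5 tested.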

How the data were processed

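RNA of 24 left gastrocnemius samples was read by paired-end sequencing of stranded libraries, per the labels' protocols. The deposited values are raw read counts per Ensembl gene, 1 file per sample, whole numbers with no normalization. HISAT2 2.1.0, Salmon 0.9.1, featureCounts and DESeq2 1.24.0, with mm10 and GRCm38.p6, are named per the submitters' processing notes, without their roles, and the use of strand is not given in the sources used here. Totals ran from 17612139 to 34039699 counts. How far the number of animals and the depth each limit precision was not compared. Acvr1c and Lep had the smallest counts of the members, down to 4 and 8 reads.

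Symbols and positions came from GENCODE M21 (GRCm38) by identifier. Samples were grouped by their labels. Counts were filtered with filterByExpr (minimum count 10) and tested with edgeR 4.0.16 in R 4.3.3 (TMM, robust quasi-likelihood F test, two-sided). Each sex was fitted on its 12 samples, and sex differences and male against female controls on all 24. Benjamini-Hochberg adjustment ran over all genes tested, and SEs correspond to the test's p-value. For SDs and likeness, log2 CPM used a prior count of 2. Levels per length used the longest coding transcript. The edgeR step was tested on simulated counts with the same spread setting for every gene. That setting differs from the wide spread of the members, so the check does not show how the test behaves for them. DESeq2 1.42.0, sva 3.50.0, SciPy 1.17.1 and Python 3.11.15 served the alternatives and exact tests. No libraries in a group agreed within sampling noise.

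The members and lists were chosen with earlier results of these data known. The members were all named; from other lists, up to 3 genes with the smallest p in female sedentary pain against control could be named, and 8 genes most like the members. Alternatives covered normalization, filters, tool, samples in the fit, robust step, replicate block, library-number covariate, 1 surrogate variable, mitochondrial genes and each animal left out. Replicates 1 and 2 only, 3 and 4 only, leaving out female control replicates 3 and 4, and all ratios to Adipoq were chosen after seeing the data.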

Additional observations from a re-analysis of the deposited data

Results flagged for a closer look

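Of 60 sets of 4 values (10 members in 6 groups), 2 had 1 animal far from the other 3, beyond Dixon's 95% critical value. Chance flags about 1 in 20 such sets. Lep in female active pain was 0.245 CPM in replicate 4, from 8 reads, while the other 3 had 2.60 to 3.03 CPM, and its Adipoq, at 20.5 CPM, lay inside the range of its group. Acvr1c in female sedentary pain was 1.501 CPM in replicate 3, while the other 3 had 0.135 to 0.226 CPM, and that animal was the highest of its group in all 10 members. The female controls were not caught by this measure, because 2 of the 4 were high.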

How the results depend on the processing

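Called members in female sedentary pain against control, 8 as reported, numbered 1 with no filter on low counts, 1 with only the groups compared in the fit, 4 with the library-number covariate, 0 with 1 surrogate variable, 0 in replicates 1 and 2 and 0 without female control replicates 3 and 4. With 1 animal left out they ranged from 0 to 9. They were 8 with relative log expression, 8 without the robust step, 8 without mitochondrial genes, 7 of 9 tested with a mean of at least 50 counts, 10 with DESeq2, 10 with all 24 samples in 1 fit and 10 in replicates 3 and 4. Apart from replicates 3 and 4, the share of all genes called is not given for the fits in that list. Their counts therefore cannot be read as particular to the members. In male against female controls, 2 as reported, there were 4 with DESeq2, 0 with no filter, 0 with only those groups, 0 in replicates 1 and 2, 0 without female control replicates 3 and 4, and 0 to 4 with 1 animal left out. In replicates 3 and 4 alone, 3 members passed in male against female controls, 1 in female active pain against control and 1 in the sex difference of sedentary pain. For those comparisons the share of all genes called is not given here. The other comparisons stayed at 0 under every alternative run. Called members that changed sign were Fabp4 in female sedentary pain, at 0.26 in replicates 1 and 2 and 0.25 without female control replicates 3 and 4, Lipe there at 0.13, and Fabp4 in male against female controls at 0.10. The cause was not tested. With the replicate number as a block, 4 members were called in female sedentary pain and 1 in male against female controls. Same-numbered samples had a mean correlation of 0.109 in females, with 6 of 12 pairs over 0.1, and 0.0131 in males, with 4 of 12. Samples with different numbers were not compared in this way, so whether the numbers pair the samples was not tested. Of the 8 most alike genes 6 were also among the nearest 8 without subtracting group means. The SEs of the members in females were 0.63 to 1.23 on the log2 scale with 4 animals a group.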
